A study of Homo sapiens and Mus musculus with 15 samples.

Results

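The 10 genes described here belong to the BCL-2 family, the proteins that set whether mitochondria release the factors that start apoptosis. They were chosen by name. The survival members are BCL2, BCL2L1 (which encodes BCL-XL), BCL2L2 (BCL-W) and MCL1, the pore-forming members are BAX and BAK1, and the BH3-only members are BCL2L11 (BIM), BBC3 (PUMA), PMAIP1 (NOXA) and BAD. All 10 were found in each table, among 61071 genes in the ARPE-19 table, 56832 in the mouse bulk table and 32285 in the scRNA-seq matrices, and all 10 passed the filter on low values in both bulk tables.

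The data come from the retinal pigment epithelium (RPE), the pigmented layer that supports photoreceptors. ARPE-19, a human RPE cell line that arose spontaneously in culture, was sequenced as 3 libraries of cells overexpressing YAP-HA (the transcriptional coactivator YAP with an HA tag) on a 1.5 kPa substrate, 3 of cells with control vectors on the same 1.5 kPa substrate, which is called the gel here, and 3 of cells with control vectors on plastic. Bulk RNA of C57BL/6J mice gave 2 libraries from old mice given TRULI, which inhibits LATS, the kinases that restrain YAP, and 2 from old mice without it (Ctrl). Cells released with papain from the RPE of C57BL/6J mice after removal of the retina were profiled by scRNA-seq as 1 library at 24 months and 1 at 3 months. The labels carry an age in months for the scRNA-seq mice alone, and the condition label of the 3-month library reads old, against its age and title, by which it was taken as young. No source used here says that the libraries of a group came from separate cultures or animals, so p-values measure the spread between these libraries, which may be technical.

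In the intrinsic pathway of apoptosis, BAX and BAK1 assemble into pores in the outer mitochondrial membrane, and cytochrome c that escapes through them activates caspases. Survival members hold this step back by binding the pore-forming and the BH3-only proteins, and BH3-only proteins are raised or released under stress and occupy the survival members. NOXA binds mainly MCL1, BAD binds BCL-2, BCL-XL and BCL-W, and PUMA and BIM bind all of the survival members. Navitoclax (ABT-263), used to remove senescent cells, occupies BCL-2, BCL-XL and BCL-W but hardly MCL1.

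The groups were first checked against YAP1 itself. YAP1 had 2469, 2209 and 2424 TPM (a level corrected for gene length and scaled to the same total in every library) in YAP-HA libraries, against 77.3, 55.9 and 64.8 TPM in control libraries on gel and 115, 126 and 119 TPM in control libraries on plastic. CCN2, a YAP target, averaged 151 TPM in control cells on gel and 468 TPM in control cells on plastic (log2 fold change -1.62, adjusted p = 2.08e-07 by limma), and 180 TPM in YAP-HA cells against 151 TPM in control cells on gel (0.25, adjusted p = 0.00811). ANKRD1, another YAP target, did not follow this order, with 101 TPM in YAP-HA cells against 175 TPM in control cells on gel (-0.79, adjusted p = 1.77e-05). TPM keeps no depth, so that of the bulk libraries is unknown.

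**Figure D1:**
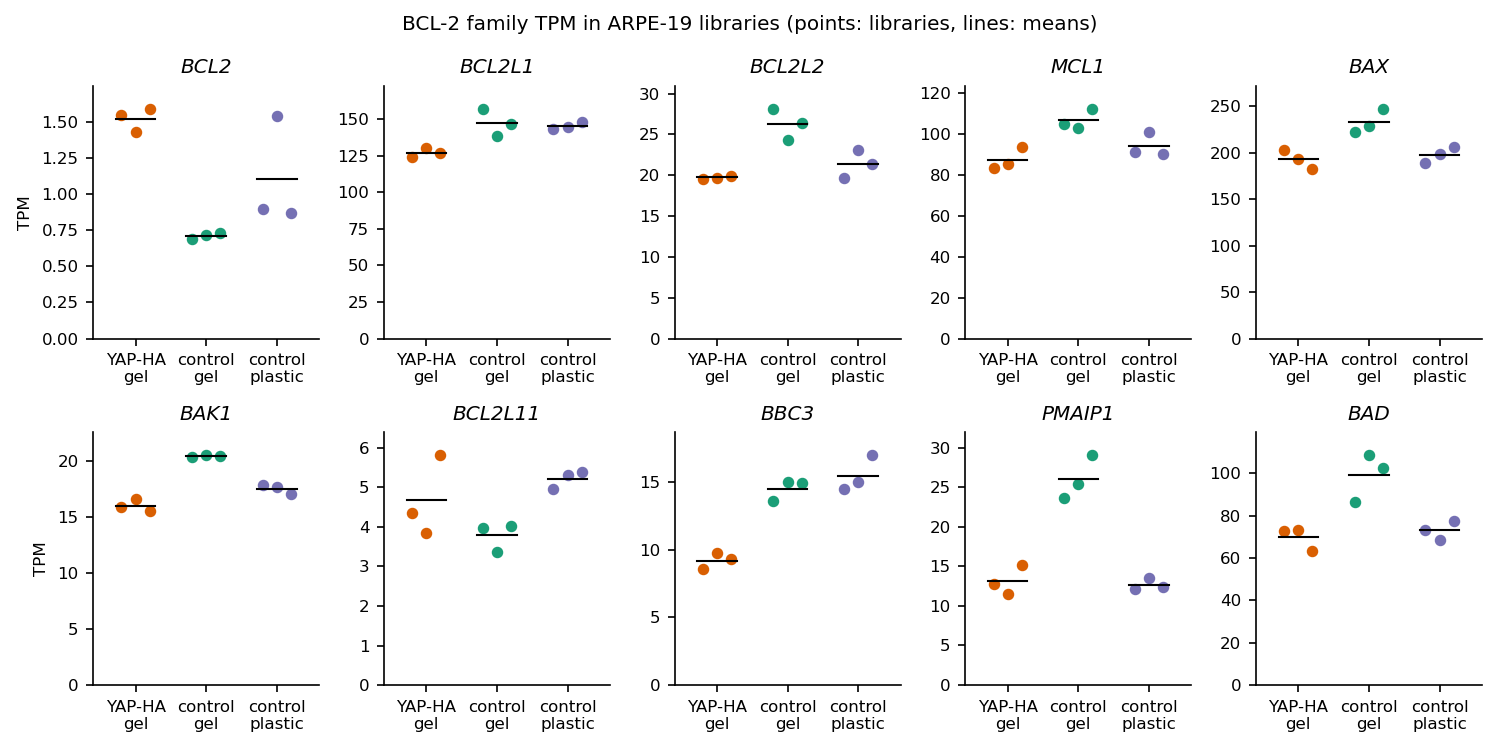
TPM of the 10 members in each ARPE-19 library. The y axis of each panel starts at 0, points are libraries (YAP-HA on gel, control on gel, control on plastic, 3 each) and lines are group means. PMAIP1 lies at 23.7 to 29.0 TPM on gel and at or below 15.1 TPM in the other libraries.

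In ARPE-19 cells the members differed in level by more than 100-fold and kept a similar order in the 3 groups. On plastic, BAX was highest (189, 199 and 206 TPM), then BCL2L1 (144, 145 and 148), MCL1 (90.9, 101 and 90.0) and BAD (73.1, 68.7 and 77.6). BCL2L2, BAK1, BBC3 and PMAIP1 lay between 12.2 and 23.1 TPM, BCL2L11 between 4.95 and 5.39, and BCL2 at 0.90, 1.54 and 0.87. In the genome (GRCh38.p14) BAX lies at chr19:48954875-48961798, BCL2L1 at chr20:31664452-31723963, MCL1 at chr1:150574558-150579610, PMAIP1 at chr18:59899996-59904305 and BCL2 at chr18:63123346-63320090. BCL-XL and MCL1 were thus the most abundant survival transcripts of this line, and the transcript of BCL-2 itself was near the filter of 1 TPM, which it passed through plastic library 2 and the 3 YAP-HA libraries. The ranges of neighbours in this order did not overlap on plastic, where BAK1 (17.0 to 17.9 TPM) and BBC3 (14.5 to 17.0 TPM) came nearest to each other. On gel the ranges of MCL1 and BAD overlapped, as did those of BCL2L2 and PMAIP1. PMAIP1 on gel (23.7 to 29.0 TPM) stood above BAK1 (20.3 to 20.5 TPM) and BBC3 (13.6 to 15.1 TPM). In YAP-HA cells BBC3 also stood below PMAIP1.

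The first comparison asks what a soft support changes in control cells. PMAIP1, BAD, BAX, BCL2L2 and BAK1 were higher on gel than on plastic and BCL2L11 was lower, so that 6 of 10 members passed an adjusted p of 0.05. Of all 14606 genes tested, 50.5% passed (22.6% higher and 27.9% lower), so the count of members stands close to that of the whole transcriptome. The median log2 fold change was 0.17 for the 4 BH3-only members, 0.22 for the 2 pore-forming members and 0.10 for the 4 survival members, beside -0.04 for all genes.

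PMAIP1, which encodes NOXA, had the largest change. It had 23.7, 25.5 and 29.0 TPM on gel, against 12.2, 13.5 and 12.4 TPM on plastic. The groups did not overlap, which held for 57.9% of all genes in this comparison. The log2 fold change of TPM + 1 was 0.98 (SE 0.11, adjusted p = 9.58e-05) and lay between 0.90 and 1.04 over the 15 alternatives.

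BAD, whose protein is held inactive by survival kinases, was the next largest increase on gel. It had 86.4, 108 and 103 TPM on gel, against 73.1, 68.7 and 77.6 TPM on plastic (log2 fold change 0.43, SE 0.093, adjusted p = 0.0038). Every gel library lay above every plastic library. BCL2L2, the survival gene of BCL-W, had 28.1, 24.3 and 26.4 TPM on gel, against 19.7, 23.1 and 21.4 TPM on plastic (0.28, SE 0.080, adjusted p = 0.0136). Its reads cannot be fully separated from those of the read-through BCL2L2-PABPN1. That read-through lay the other way on average, with 2.83, 1.43 and 4.74 TPM on gel, against 9.37, 2.01 and 6.36 TPM on plastic. The part of read assignment in the change of BCL2L2 was not tested.

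The sequence upstream of the first of 2 BAD starts is shown because BAD had the second largest increase on gel among the members. It lies on the minus strand at chr11:64284705-64284954 (GRCh38.p14, RefSeq), just before the annotated gene at chr11:64269828-64284704. Capitals mark GGGCGG, the core of a GC box (1 match, 99 bases upstream), and TGACG, a half-site of ATF/CREB factors (1 match, 54 bases upstream).
BAD: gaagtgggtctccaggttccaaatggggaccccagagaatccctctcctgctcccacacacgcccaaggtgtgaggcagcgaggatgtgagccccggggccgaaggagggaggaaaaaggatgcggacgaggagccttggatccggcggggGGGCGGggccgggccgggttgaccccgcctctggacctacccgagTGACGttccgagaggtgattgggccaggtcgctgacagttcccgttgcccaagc

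The RefSeq table of promoter windows (250 bases before to 50 after a start) held 10 windows of 8 members, with BAD and BCL2L1 in 2 windows each, and the 250 bases before the start were searched on both strands. TGACG was found in 6 of these windows, of BAD, BAX, BCL2, BCL2L1 and PMAIP1, and in 21.2% of all 35116 windows. GGGCGG was found in 6 windows, of BAD, BAK1, BAX, BCL2L11 and PMAIP1, and in 42.6% of all. GGAATG, the motif that TEAD factors, the DNA-binding partners of YAP, recognise, was in 0 of the 10 windows and in 11.9% of all. A match is only a run of letters, and these windows are short.

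Both pore-forming genes were higher on gel by a small amount. BAX had 223, 229 and 247 TPM on gel, against 189, 199 and 206 TPM on plastic (log2 fold change 0.23, SE 0.062, adjusted p = 0.0111). BAK1 had 20.3, 20.5 and 20.4 TPM on gel, against 17.9, 17.7 and 17.0 TPM on plastic (0.21, SE 0.064, adjusted p = 0.0209). The call on BAX was lost without gel library 3 (adjusted p = 0.053), and that on BAK1 without plastic library 3, gel library 2 or gel library 3 (adjusted p from 0.0544 to 0.0732).

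BCL2L11, which encodes BIM, was the only member called lower on gel. It had 3.97, 3.37 and 4.03 TPM on gel, against 4.95, 5.31 and 5.39 TPM on plastic (log2 fold change -0.38, SE 0.13, adjusted p = 0.0354). The groups did not overlap, but the call rests on few libraries. It was lost when any 1 of the 3 plastic libraries, gel library 2 or gel library 3 was left out, and without the filter, with adjusted p from 0.0547 to 0.115.

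The other 4 members did not pass. MCL1 just missed the threshold, with 105, 103 and 112 TPM on gel, against 90.9, 101 and 90.0 TPM on plastic (log2 fold change 0.18, adjusted p = 0.0502), and it passed when libraries were scaled to their median, without plastic library 2 and without YAP-HA library 3 (adjusted p from 0.0121 to 0.0435). BCL2L1 had 157, 138 and 147 TPM on gel, against 144, 145 and 148 TPM on plastic, and the 95% interval of its log2 fold change ran from -0.11 to 0.14. BBC3 had 13.6, 15.1 and 15.0 TPM on gel, against 14.5, 15.0 and 17.0 TPM on plastic (interval -0.28 to 0.11). BCL2 had 0.69, 0.72 and 0.73 TPM on gel, against 0.90, 1.54 and 0.87 TPM on plastic (-0.28, adjusted p = 0.134), levels at which adding 1 to TPM shrinks a fold change.

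The second comparison asks what overexpressed YAP-HA changes in cells kept on gel. Most members were lower in YAP-HA cells. Of the 10, 8 were lower in YAP-HA cells than in control cells on gel and BCL2 was higher, while 48.4% of all 14606 genes passed (24.5% higher and 23.9% lower). The 9 calls were made under each of the 15 alternatives, the replicate block and the omission of each library included. The median log2 fold change was -0.55 for the BH3-only, -0.30 for the pore-forming and -0.25 for the survival members, beside 0.01 for all genes. All 3 ARPE-19 comparisons share groups with one another and are not independent, and the control cells on gel serve in this comparison and in the first one.

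**Figure D2:**
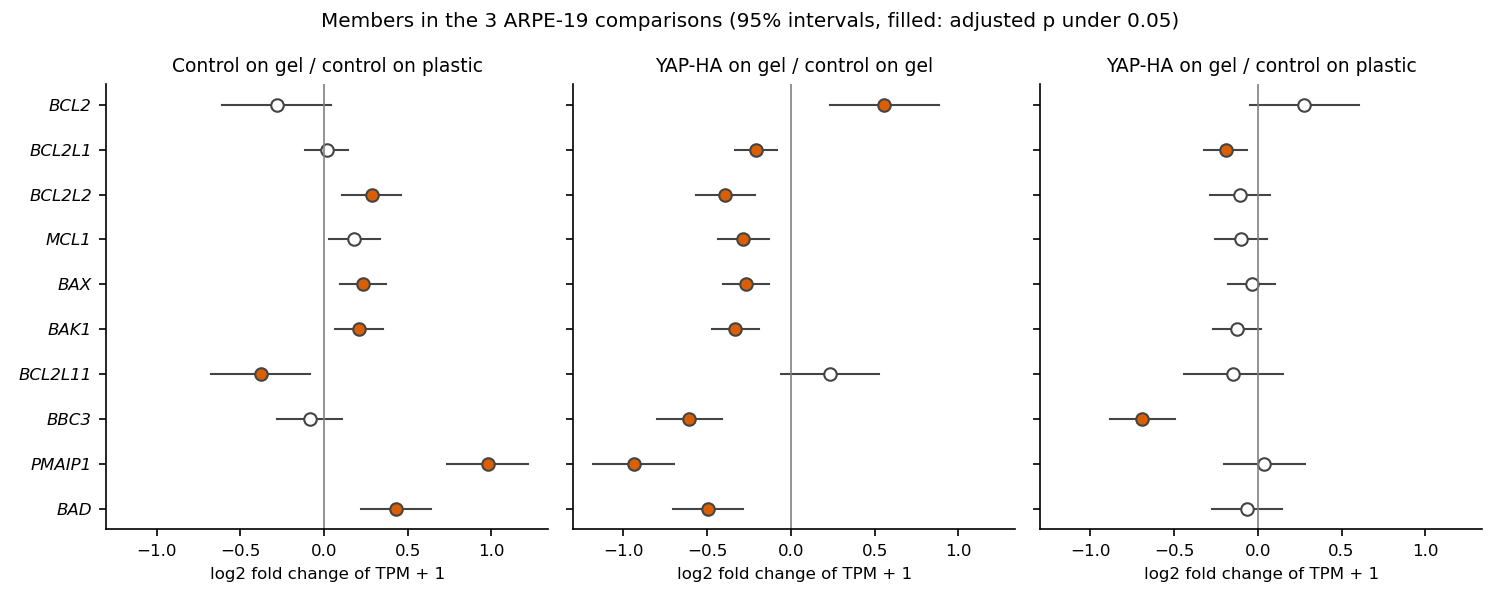
Log2 fold change of TPM + 1 of the 10 members (rows) in the 3 ARPE-19 comparisons (panels), with 95% intervals from limma. Filled points passed an adjusted p of 0.05: 6 in the left, 9 in the middle and 2 in the right panel.

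PMAIP1 had the largest change on the scale of log2(TPM + 1), and came just behind BCL2 with 0.1 added to TPM (-0.99 for PMAIP1 and 1.00 for BCL2). It had 12.8, 11.6 and 15.1 TPM in YAP-HA cells, against 23.7, 25.5 and 29.0 TPM in control cells on gel (log2 fold change -0.94, SE 0.11, adjusted p = 7.40e-05). The groups did not overlap, as for 56.8% of all genes. BAD had 72.8, 73.3 and 63.6 TPM in YAP-HA cells, against 86.4, 108 and 103 TPM in control cells on gel (-0.50, SE 0.093, adjusted p = 0.00163).

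BBC3, which encodes PUMA, a BH3-only protein raised by genotoxic stress, was lower in YAP-HA cells than in either control. It had 8.61, 9.74 and 9.31 TPM in YAP-HA cells, against 13.6, 15.1 and 15.0 TPM in control cells on gel (log2 fold change -0.61, SE 0.087, adjusted p = 3.10e-04). Against control cells on plastic, with 14.5, 15.0 and 17.0 TPM, the log2 fold change was -0.69 (SE 0.087, adjusted p = 2.39e-04). All 3 YAP-HA libraries lay below all 6 control libraries. Groups did not overlap for 56.8% of all genes against control cells on gel and for 49.8% against control cells on plastic.

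The sequence upstream of a BBC3 start is shown because this gene alone of the members was lower by more than 0.5 on the log2 scale in both comparisons of YAP-HA. It lies on the minus strand at chr19:47232668-47232917 (GRCh38.p14, RefSeq), largely inside the annotated gene at chr19:47220824-47232860, since that gene has further starts. Capitals mark TGANTCA, the motif of AP-1 (1 match, 113 bases upstream), which was in 6.57% of all windows and in no other window of the members.
BBC3: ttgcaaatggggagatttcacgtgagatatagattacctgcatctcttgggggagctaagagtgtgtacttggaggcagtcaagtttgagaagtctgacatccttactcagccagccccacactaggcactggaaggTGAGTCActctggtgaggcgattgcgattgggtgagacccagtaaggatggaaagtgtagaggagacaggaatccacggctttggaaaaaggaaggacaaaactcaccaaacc

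The pore-forming genes were lower in YAP-HA cells. BAK1 had 15.9, 16.6 and 15.6 TPM in YAP-HA cells, against 20.3, 20.5 and 20.4 TPM in control cells on gel (log2 fold change -0.33, SE 0.064, adjusted p = 0.00192). BAX had 203, 193 and 183 TPM in YAP-HA cells, against 223, 229 and 247 TPM in control cells on gel (-0.27, SE 0.062, adjusted p = 0.00517). For both genes the libraries of the groups did not overlap.

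Of the survival genes, 3 were lower in YAP-HA cells and 1 was higher. BCL2L2 had 19.6, 19.6 and 20.0 TPM in YAP-HA cells, against 28.1, 24.3 and 26.4 TPM in control cells on gel (log2 fold change -0.39, adjusted p = 0.00253). The read-through BCL2L2-PABPN1 lay the other way, with 6.08, 5.77 and 9.71 TPM, against 2.83, 1.43 and 4.74 TPM. Here too the part of read assignment in the change of BCL2L2 was not tested. MCL1 had 83.2, 85.3 and 93.7 TPM, against 105, 103 and 112 TPM (-0.28, adjusted p = 0.00689). BCL2L1, the most abundant of them, had 124, 130 and 127 TPM, against 157, 138 and 147 TPM (-0.21, adjusted p = 0.0127).

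BCL2 moved the other way. It had 1.55, 1.43 and 1.59 TPM in YAP-HA cells, against 0.69, 0.72 and 0.73 TPM in control cells on gel (log2 fold change 0.56, adjusted p = 0.0100). All 3 gel libraries lay below the filter of 1 TPM, which the gene passed through the 3 YAP-HA libraries and plastic library 2, so a difference between these groups was favoured by the filter and its place among the 9 calls is no separate support. With 1 or 0.1 added to TPM, BCL2 remained the lowest member. BCL2L11 did not pass (4.36, 3.85 and 5.81 TPM in YAP-HA cells, against 3.97, 3.37 and 4.03 TPM in control cells on gel, 95% interval -0.06 to 0.53).

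Against control cells on plastic, YAP-HA cells on gel differed in 2 of 10 members, while 34.4% of all genes passed (14.2% higher and 20.2% lower). BBC3, described above, and BCL2L1 were lower. BCL2L1 had 124, 130 and 127 TPM in YAP-HA cells, against 144, 145 and 148 TPM in control cells on plastic (log2 fold change -0.19, SE 0.057, adjusted p = 0.0256). Its groups did not overlap, as for 49.8% of all genes, yet the call was lost without plastic library 2 or 3 or YAP-HA library 1 or 3 (adjusted p from 0.056 to 0.0895). BCL2 (0.28, adjusted p = 0.171) would pass without plastic library 2, its highest control library (adjusted p = 0.0444). PMAIP1 had a log2 fold change of 0.04 (95% interval -0.20 to 0.28), BAD -0.07 (-0.27 to 0.14) and BAX -0.04 (-0.18 to 0.10). For BCL2L2, MCL1, BAK1 and BCL2L11 it lay between -0.15 and -0.10, with adjusted p from 0.166 to 0.423.

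Other genes of the pathway were read from lists by role. The counts below stand beside the shares of all genes, 22.6% higher and 27.9% lower on gel than on plastic. For YAP-HA cells these shares were 24.5% and 23.9% against control cells on gel, and 14.2% and 20.2% against control cells on plastic. Of 13 other BCL-2 family genes, 8 passed the filter, and 2 of these were higher and 3 lower on gel than on plastic. BMF, a BH3-only gene linked to the cytoskeleton, averaged 3.96 TPM on gel and 2.06 TPM on plastic (log2 fold change 0.69, adjusted p = 0.0030). In YAP-HA cells it averaged 0.25 TPM, against 3.96 TPM in control cells on gel (-1.98, adjusted p = 3.01e-06) and 2.06 TPM in control cells on plastic (-1.29, adjusted p = 9.77e-05). The YAP-HA libraries lay below the filter of 1 TPM, which BMF passed through control libraries alone. A difference from either control was thus favoured by the filter, and the place of BMF among the called genes is no separate support. BNIP3, a mitophagy receptor, was lower on gel (82.1 TPM on gel, 139 TPM on plastic, -0.75), as was its relative BNIP3L (75.8 and 123 TPM, -0.69). YAP-HA cells on gel had more BNIP3 than control cells on gel (128 and 82.1 TPM, 0.64, adjusted p = 1.30e-05), and of the list 1 gene was higher and 2 were lower in that comparison.

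Of 21 genes of the caspase and mitochondrial machinery, all passed the filter, and 8 were higher and 2 lower on gel than on plastic. The largest changes were in the inhibitors of apoptosis BIRC3 and BIRC2, ubiquitin ligases that restrain cell death downstream of TNF receptors. BIRC3 averaged 120 TPM on gel and 50.4 TPM on plastic (log2 fold change 1.23, adjusted p = 3.13e-06), and BIRC2 averaged 217 and 126 TPM (0.78, adjusted p = 5.90e-06). In YAP-HA cells BIRC3 averaged 19.0 TPM, against 120 TPM in control cells on gel (-2.60, adjusted p = 3.93e-09), and BIRC2 averaged 95.9 TPM, against 217 TPM (-1.17, adjusted p = 9.55e-08). DIABLO, an antagonist of these inhibitors that mitochondria release, was higher on gel than on plastic (46.4 and 32.7 TPM, 0.49) and lower in YAP-HA cells than in control cells on gel (35.0 and 46.4 TPM, -0.40), and the protease HTRA2 did likewise (0.46 and -0.42). CYCS, which encodes cytochrome c, was higher on gel (192 TPM on gel, 141 TPM on plastic, 0.44). Against control cells on gel, YAP-HA cells were higher in 4 and lower in 6 of the 21 genes. The initiator caspase gene CASP2 was higher in them (23.2 and 14.6 TPM, 0.64).

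Of a list of stress-response genes, CDKN1A, which encodes the cell cycle inhibitor p21, was higher on gel. It averaged 303 TPM on gel and 219 TPM on plastic (log2 fold change 0.47, adjusted p = 1.28e-04). In YAP-HA cells it averaged 202 TPM, against 303 TPM in control cells on gel (-0.59).

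Of 8 genes that act on family members, 1 was higher and 4 were lower on gel than on plastic. FOXO3, a transcription factor of BCL2L11 and BBC3, averaged 15.7 and 30.3 TPM (log2 fold change -0.91), and USP9X and HUWE1, which stabilise and degrade the MCL1 protein, averaged 22.5 and 40.5 TPM (-0.83) and 57.3 and 89.8 TPM (-0.65). DDIT3, which encodes the stress factor CHOP, was higher on gel (38.0 and 29.3 TPM, 0.37). Against control cells on gel, YAP-HA cells were higher in FOXO3, USP9X and HUWE1 and lower in DDIT3. Against control cells on plastic, the counts of higher and lower genes in YAP-HA cells were 1 and 3 for other family genes, 6 and 3 for the machinery and 0 and 2 for these regulators.

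In old mice, bulk RNA came from eye cups after the retina was removed, and so holds choroid as well as RPE. With TRULI, 0 of 10 members passed against untreated mice by limma, while 2 had an unadjusted p under 0.05. Of 15132 genes tested, 8 passed (0.0529%, with 0.0198% higher and 0.0330% lower) and 1810 had an unadjusted p under 0.05. In bulk RNA fewer cells of a type and less RNA per cell cannot be told apart.

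**Figure D3:**
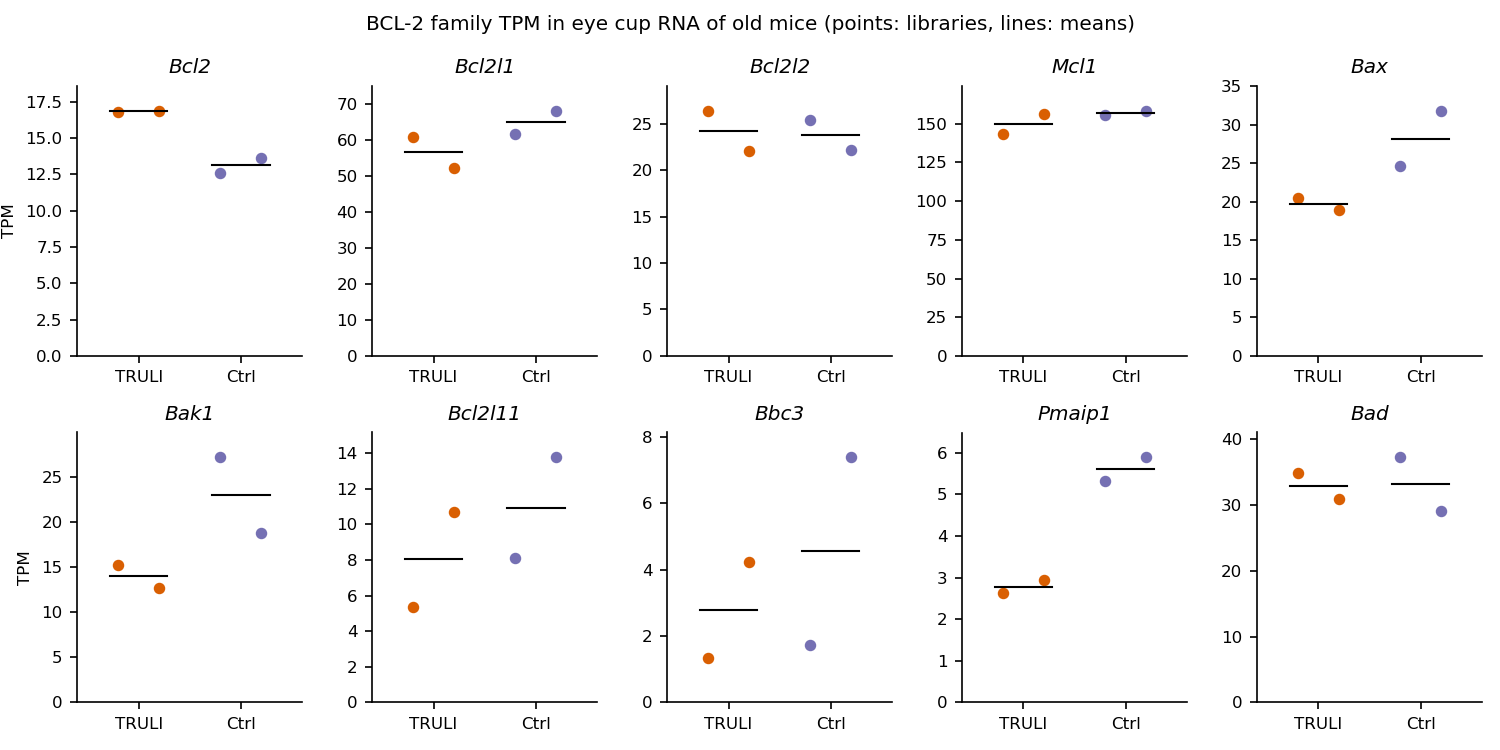
TPM of the 10 members in eye cup RNA of old mice, 2 libraries with TRULI and 2 without (Ctrl), with lines at group means and y axes from 0. Pmaip1, Bak1, Bax and Bcl2l1 lie lower and Bcl2 higher with TRULI in both libraries, and 0 of these passed the adjusted p.

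Pmaip1 had 2.62 and 2.94 TPM with TRULI, against 5.32 and 5.90 TPM without (log2 fold change -0.81, SE 0.27, unadjusted p = 0.0287, adjusted p = 0.367 by limma). Bak1 had 15.3 and 12.7 TPM with TRULI, against 27.2 and 18.8 TPM without (-0.66, SE 0.24, unadjusted p = 0.0389, adjusted p = 0.388). These are a BH3-only and a pore-forming gene, and the other pore-forming gene lay the same way, Bax with 20.5 and 19.0 TPM, against 24.6 and 31.9 TPM (-0.48, adjusted p = 0.425). Bcl2 had 16.8 and 16.9 TPM with TRULI, against 12.6 and 13.6 TPM without (0.34, adjusted p = 0.55), and Bcl2l1 had 60.9 and 52.2 TPM, against 61.5 and 68.1 TPM (-0.20, adjusted p = 0.679). The groups did not overlap for these 5 members, beside 43.3% of all genes.

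The remaining members overlapped between the groups. Mcl1, the most abundant member in this tissue, had 143 and 156 TPM with TRULI, against 156 and 159 TPM without (95% interval of the log2 fold change -0.35 to 0.21). Bad had 34.8 and 30.9 TPM, against 37.3 and 29.0 TPM, and Bcl2l2 had 26.4 and 22.1 TPM, against 25.4 and 22.2 TPM. Bcl2l11 (5.39 and 10.7 TPM, against 8.11 and 13.8 TPM) and Bbc3 (1.35 and 4.24 TPM, against 1.74 and 7.40 TPM) differed more within a group than between the groups. In each of the 4 other lists 0 genes passed.

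Summed markers of other cell types differed with the treatment. The 6 macrophage markers summed to 683 and 881 TPM with TRULI, against 1429 and 1466 TPM without, the 6 neutrophil markers to 12.1 and 19.9 TPM, against 72.7 and 60.0 TPM, and the 6 T cell markers to 14.4 and 17.2 TPM, against 52.7 and 64.9 TPM. The 6 RPE markers summed to 23832 and 23039 TPM, against 19813 and 19607 TPM, and the 6 pericyte markers to 377 and 611 TPM, against 233 and 264 TPM. The 4 erythroid markers summed to 885 and 821 TPM with TRULI, against 3052 and 2251 TPM without. All of these markers were above 0 in the 4 libraries. Their part in the values of Pmaip1, Bak1 and Bax was not tested. The YAP targets Ccn1 (30.4 and 46.6 TPM, against 15.8 and 13.3 TPM) and Ccn2 (868 and 1286 TPM, against 356 and 564 TPM) were higher with TRULI in both libraries without passing the adjusted p (0.224 and 0.252).

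The scRNA-seq libraries show which cells carry these transcripts. After filtering, 15198 cells at 24 months and 15667 at 3 months remained, and 5419 and 1886 of them were taken as RPE because Mitf, Rlbp1, Rpe65, Trpm3, Ttr and Tyr together gave at least 4% of their UMIs (unique molecular identifiers, counted transcripts). Ttr alone gave 88.1% and 87.2% of these marker UMIs. Just below the gate, at 3.5 to 4%, were 440 and 301 cells, and just above it, at 4 to 4.5%, 481 and 224 cells. RPE genes that the gate did not use were high in the gated cells, Rgr at 13731 and 13679 CPM (UMI counts scaled to the same total in every class) and Rdh5 at 6719 and 7424 CPM, though Best1 was at 1.05 and 0.46 CPM. In cells gated as fibroblasts Rgr was at 1071 and 514 CPM, though these should lack it. The RPE cells had a median of 3887 UMIs at 24 months and 10783 at 3 months, 89 and 131 of them also passed the gate of another class, and 381 barcodes occurred in both libraries (121 and 44 in RPE). With 1 library per age there is no test, and each interval covers counting error only.

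**Figure D4:**
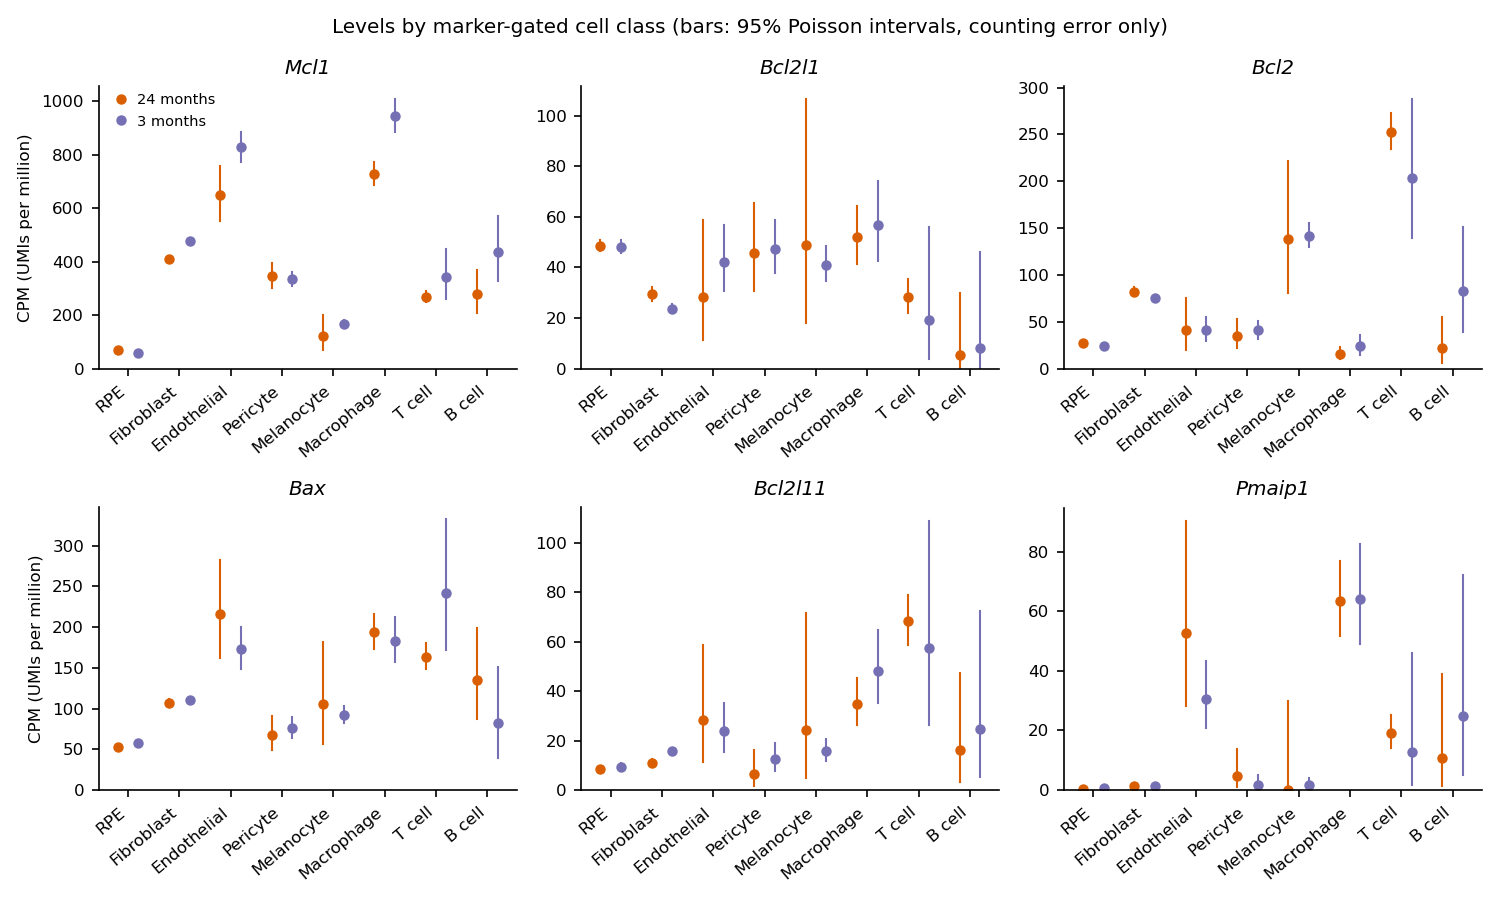
CPM of 6 members in cells gated as RPE and as 7 other classes, at 24 months (orange) and 3 months (purple), with exact 95% Poisson intervals and y axes from 0. Mcl1, Bax and Pmaip1 are lowest or near the lowest in RPE in both libraries, and Bcl2l1 in RPE lies within the range of the other classes.

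RPE cells had little Mcl1 beside the other classes. Its level was 67.9 CPM (65.5 to 70.4) in RPE at 24 months and 57.6 (54.8 to 60.6) at 3 months. Cells gated as fibroblasts had 411 and 477 CPM, pericytes 345 and 334, endothelial cells 651 and 829, macrophages 729 and 945, T cells 269 and 344, and neutrophils 1672 and 1642. Melanocytes, with 122 and 167 CPM, came nearest to RPE. The log2 ratio of RPE over fibroblasts was -2.60 (-2.66 to -2.53) at 24 months and -3.05 (-3.13 to -2.97) at 3 months.

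Bcl2l1 was not low in RPE in this way. It was at 48.5 CPM in RPE at 24 months and 48.2 at 3 months, against 29.3 and 23.7 CPM in fibroblasts (log2 ratio 0.73 and 1.03), and close to macrophages (51.9 and 56.7 CPM) and pericytes (45.7 and 47.4 CPM). The UMIs of Mcl1 per UMI of Bcl2l1 were therefore lowest in RPE among the well-covered classes, 1.40 (1.32 to 1.48) at 24 months and 1.20 (1.11 to 1.29) at 3 months. The same quotient was 14.0 and 20.2 in fibroblasts, 14.1 and 16.7 in macrophages, 22.9 and 19.7 in endothelial cells, 7.55 and 7.05 in pericytes, and 2.50 and 4.05 in melanocytes, whose interval at 24 months (0.92 to 7.87, from 15 and 6 UMIs) holds the RPE value. Capture differs between genes, so the quotient compares classes and is not a ratio of molecules.

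Bcl2 was highest in T and NK cells. RPE cells had 27.3 CPM at 24 months and 23.6 at 3 months, against 253 and 204 CPM in T cells and 261 and 273 CPM in NK cells. Melanocytes (139 and 142 CPM), Schwann cells (117 and 122 CPM) and fibroblasts (82.1 and 75.8 CPM) also lay above RPE, and macrophages (15.3 and 23.5 CPM) did not. B cells had 21.6 and 82.4 CPM, from 4 and 10 UMIs. Bcl2l2 was at 15.3 and 17.4 CPM in RPE, against 17.4 and 19.7 CPM in fibroblasts, 10.4 and 7.49 CPM in macrophages and 3.05 and 6.37 CPM in T cells, where it rests on 8 and 1 UMIs.

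Of the pore-forming genes, Bax was lower in RPE than in most other classes. It was at 53.04 and 57.2 CPM in RPE, against 106 and 111 CPM in fibroblasts, 194 and 183 CPM in macrophages and 215 and 173 CPM in endothelial cells. Bak1 was at 10.6 and 11.6 CPM in RPE, against 24.4 and 34.3 CPM in macrophages, 13.0 and 16.3 CPM in fibroblasts and 7.87 and 25.4 CPM in pericytes. Bad was not low in RPE, with 49.5 and 57.5 CPM in RPE, 63.4 and 75.3 CPM in fibroblasts, 40.9 and 46.0 CPM in macrophages and 36.9 and 38.2 CPM in T cells.

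Pmaip1 and Bbc3, the stress-induced BH3-only genes, were nearly missing from RPE cells. Pmaip1 had 22 UMIs among 43982972 at 24 months and 14 among 26097241 at 3 months, or 0.50 (0.31 to 0.76) and 0.54 (0.29 to 0.90) CPM. Macrophages had 63.5 and 64.2 CPM and endothelial cells 52.9 and 30.6 CPM. Fibroblasts, with 1.35 and 1.42 CPM, were also low. Whether the few UMIs in RPE came from these cells or from free RNA of others was not tested. Bbc3 was at 1.14 and 0.92 CPM in RPE (50 and 24 UMIs), against 7.92 and 10.0 CPM in fibroblasts and 14.6 and 32.1 CPM in macrophages. Bcl2l11 was at 8.41 and 9.46 CPM in RPE, against 68.2 and 57.3 CPM in T cells, 162 and 172 CPM in NK cells and 34.8 and 48.2 CPM in macrophages.

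Taking a log2 ratio of at least 0.5 in size with an interval that leaves out 0, RPE cells at 24 months were lower than fibroblasts in 5 of 10 members and higher in 1, beside 39.4% and 24.2% of all genes. At 3 months they were lower in 6 and higher in 1, beside 44.3% and 22.7%. These shares are near those of all genes. Against macrophages RPE cells were lower in 6 of 10 members in both libraries, beside 25.2% and 26.1% of all genes, and higher in 1, beside 27.0% and 23.8%. The 6 were Mcl1, Bax, Bak1, Bcl2l11, Bbc3 and Pmaip1 at both ages. Against T cells at 24 months, RPE cells were lower in 7 members and higher in Bcl2l1 and Bcl2l2, beside 32.0% and 26.6%, and at 3 months lower in 6 and higher in 0, beside 17.6% and 11.5%. Against endothelial cells they were lower in 6 members at each age, beside 20.8% and 33.7% of all genes, and higher in 0, beside 9.46% and 19.3%. Mcl1, Bax, Bcl2l11, Bbc3 and Pmaip1 were among the 6 at both ages. Against pericytes they were lower in 2 members at 24 months and 5 at 3 months, beside 25.0% and 35.0%, and higher in 0, beside 14.6% and 21.4%. Against melanocytes they were lower in 4 and 8, beside 12.6% and 42.2%, and higher in 0, beside 3.96% and 13.8%. Few cells stand behind some of these counts, 152 pericytes, 74 endothelial cells and 64 melanocytes at 24 months and 40 T cells at 3 months. Mcl1 was lower in RPE in all 12 of these comparisons.

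Between the ages, the members differed little in RPE cells. With the same threshold 0 of 10 members passed between 24 and 3 months, beside 11.1% of 14759 genes (6.67% higher and 4.40% lower at 24 months), and the median log2 ratio of all genes was -0.04. The intervals of 5 members left out 0, beside 36.6% of all genes. Mcl1 and Bcl2 were higher and Bad, Bcl2l2 and Bax lower at 24 months.

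**Figure D5:**
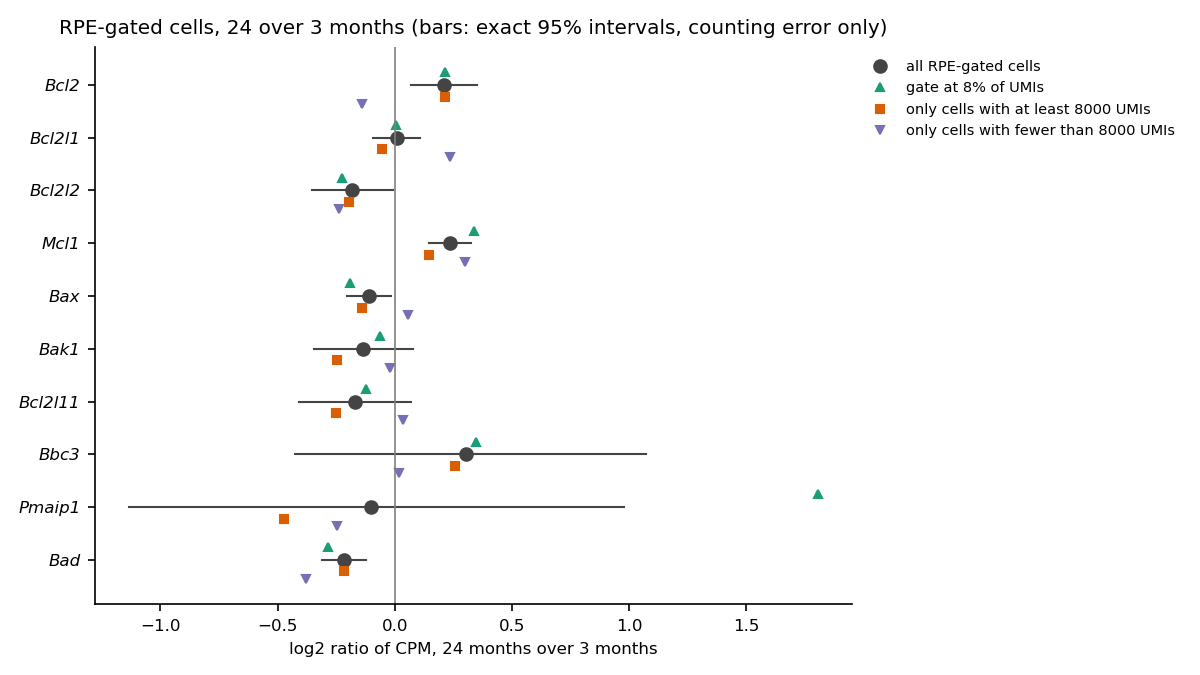
Log2 ratio of CPM in RPE cells, 24 months over 3 months, for the 10 members (rows). Circles with exact 95% intervals are all gated cells, and the other marks are the stricter gate of 8% and the cells above and below 8000 UMIs. Circles of all members lie between -0.22 and 0.31, and for Bax, Bcl2 and Bcl2l11 the cells under 8000 UMIs fall on the other side of 0.

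Mcl1 had 2987 UMIs at 24 months and 1504 at 3 months (67.9 and 57.6 CPM, log2 ratio 0.24, interval 0.15 to 0.33). The ratio ran from 0.11 with a gate of 2% to 0.34 with a gate of 8%, and was 0.15 in cells with at least 8000 UMIs. Within RPE cells the level of Mcl1 followed the marker share at both ages. It was 126 and 116 CPM in cells with a share of 4 to 6%, 68.9 and 72.6 CPM at 6 to 8%, and 49.5 and 39.1 CPM above 8%.

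Bcl2 was at 27.3 CPM at 24 months and 23.6 CPM at 3 months (log2 ratio 0.21, 0.07 to 0.35). In cells under 8000 UMIs the ratio was -0.14. Bcl2 also followed the marker share, with 43.6 and 48.3 CPM at 4 to 6% and 20.9 and 18.0 CPM above 8%. Bcl2l1 had nearly the same level at both ages with all gated cells (0.01, -0.09 to 0.11), an interval for counting error only. Over the 11 alternatives its ratio ran from -0.05 to 0.23. At 24 and 3 months its level was 55.9 and 48.5 CPM in cells under 2000 UMIs. It was 61.7 and 51.8 CPM from 2000 to under 8000 UMIs, and 46.3 and 48.0 CPM in cells with at least 8000 UMIs.

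Bad was at 49.5 CPM at 24 months and 57.5 CPM at 3 months (log2 ratio -0.22, -0.31 to -0.12), and was lower at 24 months under all 11 alternatives (-0.38 to -0.11). Bcl2l2 was lower in all 11 as well (-0.41 to -0.18), with 15.3 and 17.4 CPM (-0.18, -0.35 to -0.01). Bax was at 53.04 and 57.2 CPM (-0.11, -0.20 to -0.02), but 0.25 in cells thinned to 1000 UMIs and 0.06 in cells under 8000 UMIs. Bak1 (-0.13), Bcl2l11 (-0.17), Bbc3 (0.31) and Pmaip1 (-0.10) had intervals that include 0.

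Summed markers of other classes in RPE cells also differed between the ages. The 6 macrophage markers summed to 210 CPM at 24 months and 147 CPM at 3 months, with 0 of them at 0. Csf1r was the largest part and lay the other way (98.9 and 107 CPM). C1qa was at 29.5 and 11.2 CPM, C1qb at 43.0 and 14.4 CPM and C1qc at 34.4 and 11.9 CPM, and Mrc1 and Adgre1 were also higher at 24 months. The T cell markers summed to 18.3 and 0.92 CPM, the neutrophil markers to 38.2 and 0.15 CPM (4 of 6 at 0 at 3 months), and the pericyte markers to 90.8 and 63.4 CPM. The sums were lower at 24 months for melanocytes (651 and 1382 CPM) and fibroblasts (571 and 669 CPM). Those of Schwann cells (34.1 and 42.15 CPM) and endothelial cells (60.1 and 60.7 CPM) were also lower. Most melanocyte markers are genes of pigment cells, and RPE cells are pigmented, so the source of these transcripts is uncertain. Dct was at 356 and 722 CPM in RPE cells and 43.4 and 195 CPM in fibroblasts, while Gpnmb was higher in RPE cells at 24 months (197 and 180 CPM). The level of Mcl1 was higher in each of these classes than in RPE. That of Bcl2 was higher in melanocytes, fibroblasts, pericytes, Schwann cells, endothelial cells and T cells. At 24 months its log2 ratio of RPE over pericytes was -0.35 (-0.95 to 0.33) and over endothelial cells -0.58 (-1.46 to 0.49). Both intervals include 0, and the Bcl2 level of Schwann cells at 24 months rests on 6 UMIs. The part of transcripts from these classes in the ratios of both genes was not tested. Without the 89 and 131 cells that passed a second gate, all 10 ratios moved by less than the width of their intervals. These are few of the 5419 and 1886 RPE cells, so this cannot bear on transcripts of other classes in the remaining cells.

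Of the other genes of the pathway in RPE cells, few passed the same threshold between the ages, beside 11.1% of all genes. Of 11 other family genes with at least 20 UMIs, Bcl2a1b was higher at 24 months (6.43 and 2.34 CPM, log2 ratio 1.46) and Bmf was lower (1.84 and 3.33 CPM, -0.86). Bcl2a1b is a survival gene of leukocytes and shares reads with its near-identical copies, so its level is uncertain. Gdf15, a secreted stress factor, was higher (19.7 and 11.9 CPM, 0.73). Of the 7 regulators 0 passed. The median was 0.35 for the other family genes and -0.07 for the regulators, beside -0.04 for all genes.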

How the data were processed

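The scRNA-seq files that the authors deposited hold raw UMI counts per barcode, made with Cell Ranger 6.0.1 on mm10. The authors deposited the bulk data as TPM, with STAR, RSEM and the builds GRCh38 and GRCm39 listed in the submitters' processing notes (STAR 2.7.3a and 2.7.10b, not assigned to a table). TPM keeps no depth, and 0 TPM columns were without a sample.

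TPM was analysed as log2(TPM + 1) with limma 3.58.1 in R 4.3.3 (trend on, robust off, two-sided, Benjamini-Hochberg adjustment over all tested genes, threshold 0.05). Genes needed 1 TPM in at least 3 of 9 ARPE-19 libraries, which shared 1 fit (6 residual degrees of freedom), or in 2 of 4 mouse libraries. Differences of low genes are understated by the pseudocount of 1. Fits were tested on simulated data.

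Barcodes were kept if 200 or more genes were detected, mitochondrial transcripts made up 10% or less, and hemoglobin was not detected, the last being a reading of the methods. Other classes needed at least 3 of 6 markers and a marker share of 1% (0.2% for T, B and Schwann cells, 0.1% for NK cells), limits set after the data were seen, and cells past several non-RPE gates were left out. Doublets were neither called nor removed. UMIs were summed per class and library, and genes compared between ages or classes needed 20 UMIs. Exact Poisson and conditional 95% intervals cover counting error only. Python 3.11.15, numpy 2.4.6, scipy 1.17.1, pandas 2.3.3 and matplotlib 3.10.9 were used.

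Alternatives were another pseudocount (0.1), no filter, median scaling, a replicate block, robust moderation, only the groups compared, leaving out each library, and for cells other gates (2% and 8%), denominators, depths and cell sets, of which 4 (cells past another gate, cells above and below 8000 UMIs, shared barcodes) were added after seeing the data. All members are named, and of each other list up to 4 increases and 4 decreases past the threshold. Some genes of the lists are not reported here. Members and lists were chosen with earlier results of these data known.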

Additional observations from a re-analysis of the deposited data

Results flagged for a closer look

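The direction of Mcl1 between 24 and 3 months differed between classes of cells. It was higher at 24 months in RPE cells (log2 ratio 0.24) and lower in cells gated as fibroblasts (-0.22, with 411 and 477 CPM), endothelial cells (-0.35, with 651 and 829 CPM), macrophages (-0.37, with 729 and 945 CPM) and B cells (-0.64, with 280 and 436 CPM). Bcl2 was likewise higher in RPE cells (0.21) and lower in B cells (-1.93), a value resting on 4 UMIs at 24 months and 10 at 3 months. The intervals of each pair lie on opposite sides of 0. These differences between classes were not tested, since each age is 1 library.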

How the results depend on the processing

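On gel against plastic, leaving out 1 library gave 3 to 7 called members (3 without gel library 3, against 6 with all libraries) and 5925 to 7915 called genes, against 7383. The log2 fold change of BCL2L1 lay between -0.031 (without gel library 1) and 0.060. For YAP-HA cells against control cells on gel, 9 members were called under every alternative, with 5849 to 7580 genes. For YAP-HA cells against control cells on plastic, leaving out 1 library gave 1 to 2 called members (1 without plastic library 3, YAP-HA library 1 or YAP-HA library 3) and 3891 to 5695 genes. BAX there turned to 0.013 with median scaling and lay between -0.074 and 0.00099 (without YAP-HA library 3) with 1 library left out, and PMAIP1 between -0.059 (without YAP-HA library 3) and 0.12.

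Whether replicate numbers pair the samples is not known. Same-numbered libraries had correlations of deviations from -0.13 to 0.09 in ARPE-19 and 0.06 in mice, which cannot decide it with so few libraries per group. With the replicate block, 6905, 6645 and 4530 genes were called in the 3 ARPE-19 comparisons in the order of the report, against 7383, 7066 and 5019, and 0 in mice, against 8. The block left 1 called member for YAP-HA cells against control cells on plastic, BCL2L1 going to an adjusted p of 0.0524 by limma, and changed no other call on a member.

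With TRULI, 0 members were called under all 9 alternatives, and the 8 called genes became 0 with a pseudocount of 0.1, 0 without the filter, 3 with median scaling and 0 without any 1 library. Bcl2l2 turned to -0.026 with median scaling. With 1 library left out, 4 log2 fold changes took both signs, Bcl2l2 from -0.10 to 0.15, Bad from -0.18 to 0.17, Bbc3 from -1.26 to 0.36 and Bcl2l11 from -0.86 to 0.014. A lone library in a group is assumed to vary like the other group.

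In RPE cells, thinning to 1000 UMIs (4120 and 1483 cells at 24 and 3 months) left 796 genes past the fold, against 1633, and turned Bax to 0.25. In cells under 8000 UMIs Bax turned to 0.055, Bcl2 to -0.14 and Bcl2l11, whose interval includes 0 with all cells, to 0.035. The causes of these changes were not tested, beside the fewer samples or UMIs that leaving out and thinning bring. Values of Pmaip1 and Bbc3 in RPE cells rest on 14 to 50 UMIs.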
